A study of Homo sapiens with 6 samples.

Results

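Replication-dependent histones are the core and linker histones whose synthesis accompanies DNA replication. The 25 genes described here carry their symbols, 23 as coding genes and HIST2H2BC and HIST2H2BA as pseudogenes. They were chosen by symbol and by level: the symbol starts with HIST1H, HIST2H, HIST3H or HIST4H, and the mean over 6 libraries is at least 1 FPKM (a fragment count scaled to exon length and to library size). Of 26255 symbols, 73 carry one of these prefixes, and 25 passed. The libraries come from BxPC-3, an established line of human pancreatic cancer cells, and form 3 groups of 2: Parent cells without treatment, cells given the negative control NC-1, and cells transfected with the microRNA miR-4711-5p, collected 36 h after transfection. No source used here states whether the 2 libraries of a group came from separate cultures, so p-values measure only the spread between these libraries, which may be technical.

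Most animal mRNAs end in a poly(A) tail, but the main transcripts of these genes do not. They end just after a short stem-loop in the 3′ end, which the stem-loop binding protein SLBP holds and which the U7 small nuclear ribonucleoprotein helps to cut. Their levels rise in S phase and fall when DNA synthesis stops. Some of the genes also make longer, polyadenylated transcripts that run past the stem-loop, known mainly from resting and differentiating cells. The libraries here were prepared with a kit that selects polyadenylated mRNA, so the values report the tailed fraction of histone transcripts and any untailed RNA that passed the selection, and these cannot be told apart in FPKM. In bulk RNA, fewer cells in S phase and less RNA per cell cannot be told apart either.

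The signal that ends the untailed form was present in every member with an annotated coding transcript. Symbols were matched to GENCODE on GRCh37, the build called hg19 in the study. All 25 members matched, 23 of them to a coding gene and HIST2H2BC and HIST2H2BA to pseudogenes. Each of the 23 held a stem-loop within 200 bases after the stop codon, starting 27 to 57 bases past it. All 44 coding genes among the prefixed symbols under 1 FPKM also held one within 200 bases. The loop itself was not uniform: 13 members shared one 16-base sequence, 4 H2B genes of chromosome 6 shared a second, both H4 genes another, and HIST1H3E, HIST1H2AG, HIST2H2AC and HIST1H2AK had one each. The windows below, read on the strand of the gene, show one gene of each shared type and 2 of the single ones, with the stem and loop in capitals.
HIST1H1C (chr6:26055967-26055992, minus strand): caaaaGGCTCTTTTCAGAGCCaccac
HIST1H2BK (chr6:27114140-27114165, minus strand): ccaaaGGCTCTTTTAAGAGCCactta
HIST1H4H (chr6:26285354-26285379, minus strand): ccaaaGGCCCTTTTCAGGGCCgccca
HIST1H3E (chr6:26225819-26225844, plus strand): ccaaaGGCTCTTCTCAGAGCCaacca
HIST2H2AC (chr1:149858936-149858961, plus strand): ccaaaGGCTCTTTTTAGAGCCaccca

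Annotated transcripts past the stem-loop were more frequent among the genes with measurable levels. GENCODE lists a coding transcript that ends over 100 bases beyond the loop for 18 of 67 coding prefixed symbols, and 12 of these 18 were members; of the other 49 symbols, 11 were members. The median of the mean FPKM was 4.89 in the 18 and 0.365 in the 49. The rule used these means, so the counts are a description. The 12 members were HIST1H2AC, HIST1H2BD, HIST1H2BC, HIST1H2BJ, HIST1H4H, HIST3H2A, HIST2H2BE, HIST1H3H, HIST2H2BF, HIST4H4, HIST1H3E and HIST1H2BN, with the furthest annotated end between 769 bases (HIST1H3H) and 37155 bases (HIST1H2BC) beyond the loop. The gene with the highest level, HIST1H2BK, has a single GENCODE transcript that stops 5 bases past the loop, whereas its RefSeq gene entry spans 8566 bases. HIST1H1C was the one member over 10 FPKM that was short in both annotations.

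**Figure D1:**
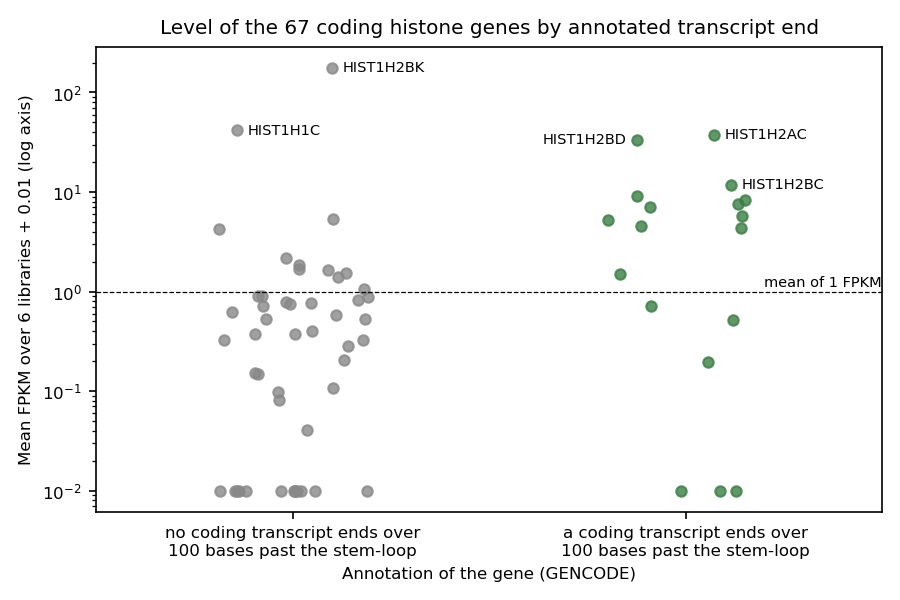
Mean FPKM over 6 libraries plus 0.01 (log axis) of the 67 coding histone genes, 1 point per gene, split by whether GENCODE lists a coding transcript that ends over 100 bases past the stem-loop. Of the 18 genes with such a transcript 12 lie above the dashed line at 1 FPKM, and of the 49 without one 11 do.

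HIST1H2BK, a core H2B gene, stood far above the others and was raised with miR-4711-5p. Its level was 155 and 159 FPKM in Parent, 155 and 168 in NC-1, and 211 and 205 with miR-4711-5p. Both miR-4711-5p libraries lay above all 4 others, and Parent and NC-1 overlapped. The ratio of means was 1.33 against Parent (log2 fold change 0.41, SE 0.05, limma adjusted p = 0.00079) and 1.29 against NC-1 (0.36, SE 0.05, adjusted p = 0.00144). NC-1 over Parent was 1.03 (adjusted p = 0.576). The 2 calls held under each of the 13 other fits, including each that left out 1 library. Between 43.2% and 47.7% of the summed FPKM of the members came from this gene. Of the 75-base windows of its transcript, 39.0% occur also in another gene, chiefly other H2B genes, so part of its reads could have been assigned elsewhere or taken from there.

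The other members over 10 FPKM were not called in any comparison. HIST1H1C, the linker histone H1.2, had 41.4 and 37.1 FPKM in Parent, 44.7 and 40.1 in NC-1, and 43.3 and 42.2 with miR-4711-5p. HIST1H2AC, a core H2A gene, had 40.5 and 35.4, 42.1 and 32.2, and 38.2 and 37.5 FPKM in the same order. In HIST1H1C both miR-4711-5p libraries lay above both Parent libraries and within the range of NC-1, and in HIST1H2AC the 3 groups overlapped. HIST1H2BD, an H2B gene, had 29.8 and 34.2 FPKM in Parent, 28.1 and 35.4 in NC-1, and 36.5 and 34.6 with miR-4711-5p. Its neighbour in level, HIST1H2BC, had 9.42 and 12.2, 10.9 and 11.6, and 13.7 and 12.0 FPKM. Ratios of miR-4711-5p to Parent in these 4 genes ran from 0.996 (HIST1H2AC) to 1.19 (HIST1H2BC), with adjusted p from 0.143 to 0.991.

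**Figure D2:**
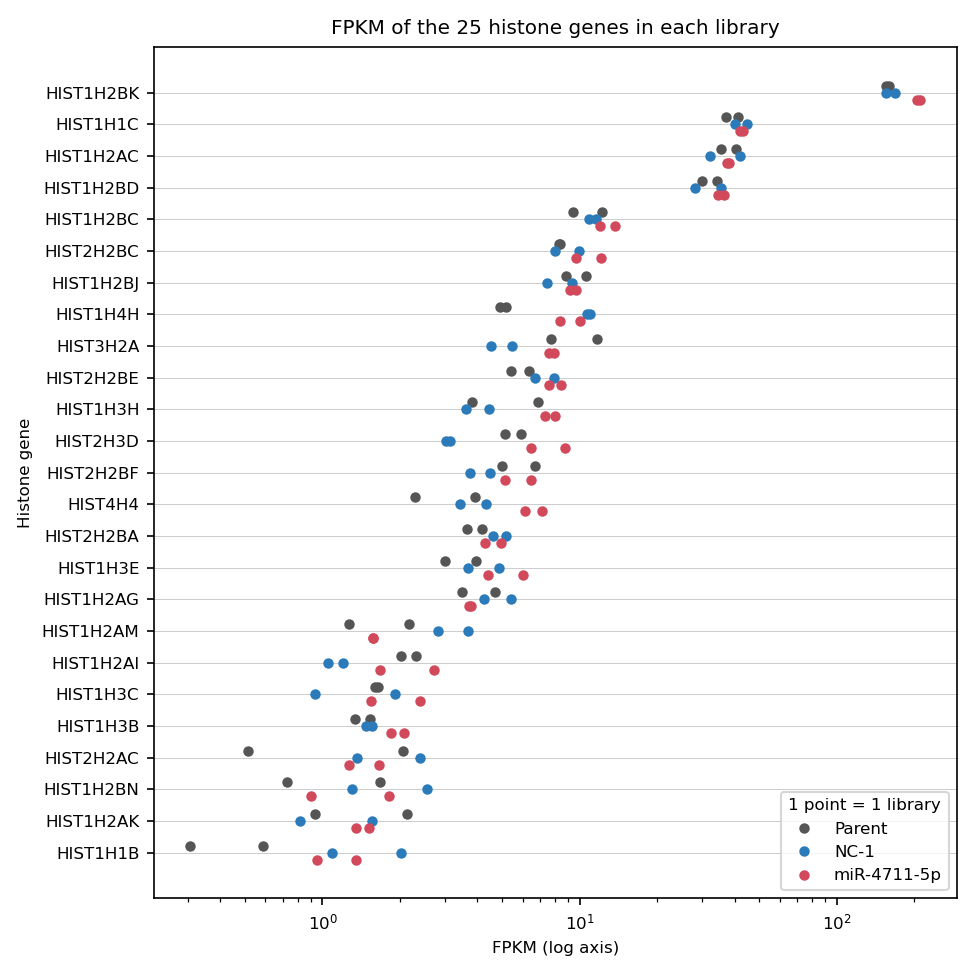
FPKM (log axis) of each of the 25 histone genes, 1 point per library, coloured by group and ordered by the mean over 6 libraries. HIST1H2BK lies apart from the rest, with the miR-4711-5p points at 211 and 205 FPKM, and the points of most genes under 2 FPKM are widely spread within a group.

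Both H4 members were higher in miR-4711-5p libraries than in Parent, but their NC-1 levels were unlike. HIST1H4H had 4.88 and 5.19 FPKM in Parent, 10.7 and 11.0 in NC-1, and 10.04 and 8.38 with miR-4711-5p. All 4 libraries of treated cells were above both Parent libraries, and those of NC-1 were above those of miR-4711-5p. The ratio was 1.83 for miR-4711-5p over Parent (log2 fold change 0.75, SE 0.09, limma adjusted p = 0.000553), 2.15 for NC-1 over Parent (0.97, SE 0.09, adjusted p = 0.000996) and 0.850 for miR-4711-5p over NC-1 (adjusted p = 0.0842). Both calls held under each of the 13 other fits.

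HIST4H4, on chromosome 12 apart from the main clusters, had 2.29 and 3.93 FPKM in Parent, 3.43 and 4.34 in NC-1, and 6.11 and 7.11 with miR-4711-5p. Both miR-4711-5p libraries were above the other 4, while NC-1 and Parent overlapped. The ratio was 2.13 against Parent (log2 fold change 0.92, SE 0.19, limma adjusted p = 0.00761) and 1.70 against NC-1 (0.64, SE 0.19, adjusted p = 0.0324). The call against Parent was lost without miR-4711-5p replicate 2 (adjusted p = 0.0593). The call against NC-1 was lost without either NC-1 library or either miR-4711-5p library (up to 0.171).

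Among the H3 genes, HIST2H3D and HIST1H3H were above NC-1 in the miR-4711-5p libraries. HIST2H3D had 5.89 and 5.13 FPKM in Parent, 3.14 and 3.03 in NC-1, and 8.76 and 6.44 with miR-4711-5p, 3 ranges that did not overlap. Its ratio was 2.47 against NC-1 (log2 fold change 1.06, SE 0.13, limma adjusted p = 0.000838), which held under each of the 13 other fits. Against Parent it was 1.38 (adjusted p = 0.0459), a call kept in 5 of the 13 and lost with 5 of the 6 libraries left out in turn (up to 0.244). NC-1 itself was lower than Parent, with a ratio of 0.559 (adjusted p = 0.0112), lost without Parent replicate 1 or either NC-1 library (up to 0.0837). Of its 75-base windows, 69.6% occur in another gene.

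HIST1H3H had 6.87 and 3.81 FPKM in Parent, 4.43 and 3.62 in NC-1, and 8.04 and 7.35 with miR-4711-5p. The ratio against NC-1 was 1.91 (log2 fold change 0.79, SE 0.21, limma adjusted p = 0.0216), lost without either NC-1 or either miR-4711-5p library (up to 0.122). Against Parent it was 1.44 (adjusted p = 0.0948), where the Parent libraries lay far apart. HIST1H3B was also above all 4 other libraries with miR-4711-5p, at 2.07 and 1.84 FPKM against 1.34 to 1.56, but was not called (adjusted p = 0.0737 and 0.136). HIST1H3E and HIST1H3C were not called, with ratios of 1.49 and 1.21 against Parent.

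The H2A genes moved in different directions. HIST3H2A had 11.7 and 7.72 FPKM in Parent, 5.45 and 4.53 in NC-1, and 7.98 and 7.62 with miR-4711-5p, so that NC-1 was the lowest group and the other groups overlapped. NC-1 over Parent was 0.515 (log2 fold change -0.82, SE 0.16, limma adjusted p = 0.0127), lost without NC-1 replicate 2 (0.0778), and miR-4711-5p over NC-1 was 1.56 (0.56, SE 0.16, adjusted p = 0.0318), lost without any one of the NC-1 or miR-4711-5p libraries (up to 0.166). HIST1H2AI had 2.03 and 2.32 FPKM in Parent, 1.20 and 1.05 in NC-1, and 2.72 and 1.68 with miR-4711-5p. Its ratios were 0.518 for NC-1 over Parent (adjusted p = 0.0396) and 1.95 for miR-4711-5p over NC-1 (0.0295). The first call was lost without any one of the Parent or NC-1 libraries (up to 0.152), and the second was lost when any library but miR-4711-5p replicate 2 was left out (up to 0.134).

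HIST1H2AM went the other way in NC-1. It had 1.27 and 2.17 FPKM in Parent, 2.81 and 3.69 in NC-1, and 1.57 and 1.57 with miR-4711-5p. NC-1 was above the other groups, with a ratio of 1.89 over Parent (limma adjusted p = 0.0331), and miR-4711-5p over NC-1 was 0.483 (log2 fold change -0.72, SE 0.18, adjusted p = 0.0163). The first call was lost when any library but Parent replicate 2 was left out (up to 0.15), and the second without NC-1 replicate 2 or either miR-4711-5p library (up to 0.0939). HIST1H2AI has 61.3% of its 75-base windows in common with another H2A gene (H2AC14). HIST1H2AM has 65.9% in common with other transcripts, among them those of the H3 gene H3C12, which overlaps it on the same strand. Reads from such stretches could have been assigned to either gene. HIST1H2AG, HIST2H2AC and HIST1H2AK were not called.

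Of the remaining members, HIST2H2BE, an H2B gene, had 5.38 and 6.37 FPKM in Parent, 6.70 and 7.95 in NC-1, and 7.58 and 8.48 with miR-4711-5p. Both treated groups lay above Parent and overlapped each other, and the ratio to Parent was 1.37 with miR-4711-5p (limma adjusted p = 0.0207). That call was lost without Parent replicate 1 or either miR-4711-5p library (up to 0.127). HIST1H1B, the linker histone H1.5, had 0.307 and 0.585 FPKM in Parent, 1.09 and 2.03 in NC-1, and 0.950 and 1.36 with miR-4711-5p. NC-1 over Parent was 3.49 (adjusted p = 0.0306), lost with 5 of the 6 libraries left out in turn (up to 0.146), and miR-4711-5p over Parent was 2.58 without a call (adjusted p = 0.0632). Its mean was 0.446 FPKM in Parent, so it passed the limit of 1 FPKM through the treated groups, where it was high, and its call is no support for a difference. The other H2B members, HIST1H2BJ, HIST2H2BF, HIST1H2BN and the pseudogenes HIST2H2BC and HIST2H2BA, had ratios of miR-4711-5p to Parent from 0.970 to 1.30 and were not called.

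Counted over the 25 members, limma called 5 higher and 0 lower for miR-4711-5p against Parent; over all 12040 symbols tested, 18.7% were higher and 24.7% lower. The median log2 fold change was 0.19 in the members and -0.01 over all symbols, and an unadjusted p under 0.05 was reached by 10 members in the higher direction and 0 in the lower, beside 23.1% and 28.8% of all symbols. Against NC-1, 6 members were higher and 1 lower, where 18.4% and 21.2% of all symbols were, with medians of 0.18 and 0.00. NC-1 against Parent gave 3 higher, HIST1H1B among them, and 3 lower, beside 12.1% and 15.1% of all, with medians of 0.06 and -0.01. The shares of members called higher are thus near those of all symbols. Both miR-4711-5p libraries lay above the other 4 in 5 members and below them in 0, beside 23.8% and 26.3% of all symbols. The comparisons share libraries and are not independent.

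**Figure D3:**
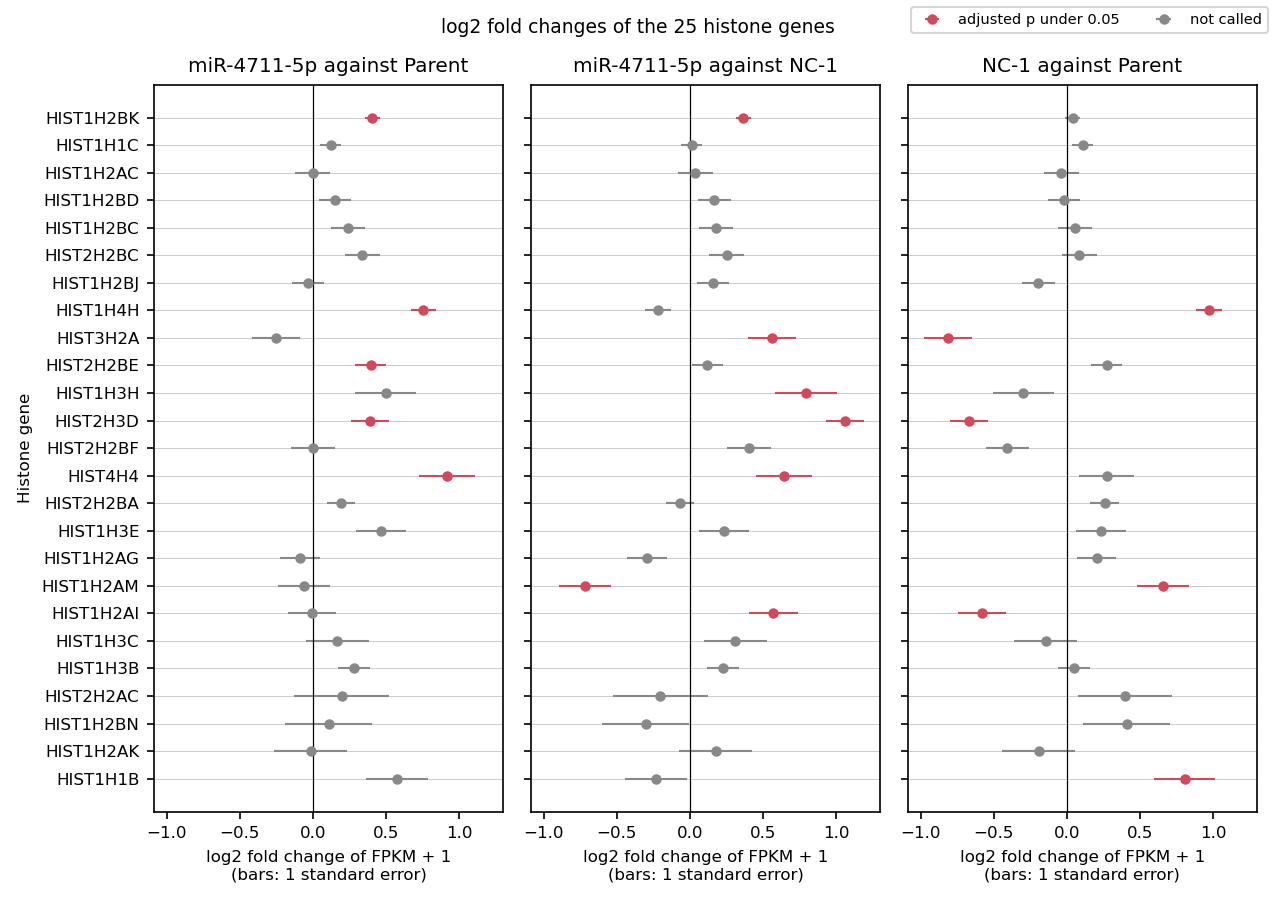
log2 fold change of FPKM + 1 for the 25 histone genes in 3 comparisons, with bars of 1 standard error; red points have a limma adjusted p under 0.05. With miR-4711-5p against Parent the 5 red points all lie to the right of 0, and HIST1H4H, HIST3H2A, HIST2H3D, HIST1H2AM, HIST1H2AI and HIST1H1B are red in the comparison of NC-1 with Parent.

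These splits depend on scale. The FPKM of all symbols summed to 550772 and 543074 in Parent and to 493145 and 499659 with miR-4711-5p. With every library scaled to the same sum, an alternative added after the data were seen, the median log2 fold change of all symbols against Parent was 0.11 in place of -0.01. Then 4010 symbols were higher and 1776 lower, in place of 2255 and 2975, and 13 members were higher and 0 lower. For NC-1 against Parent the same scaling gave 2327 higher and 1000 lower, in place of 1456 and 1823, and 5 members higher and 2 lower. For miR-4711-5p against NC-1 it gave 2923 higher and 2083 lower, in place of 2214 and 2549, with 7 members higher and 1 lower.

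Summed by class, H2B, H3 and H4 were highest with miR-4711-5p, where both libraries lay above the other 4. The members together had 359 and 358 FPKM in Parent, 359 and 376 in NC-1, and 444 and 430 with miR-4711-5p, a ratio of 1.22 against Parent and 1.19 against NC-1. Without HIST1H2BK the ratios were 1.14 and 1.11. The 9 H2B members, which include the pseudogenes HIST2H2BC and HIST2H2BA, summed to 229 and 240 FPKM in Parent. They had 226 and 255 in NC-1, and 298 and 295 with miR-4711-5p. The 5 H3 genes had 18.7 and 16.04, 13.7 and 14.97, and 27.3 and 21.6 FPKM, and the 2 H4 genes had 7.17 and 9.12, 14.1 and 15.3, and 16.2 and 15.5. The 7 H2A genes had 61.6 and 55.3, 59.9 and 49.0, and 57.4 and 54.7 FPKM, with overlapping groups, and the 2 H1 genes ratios of 1.11 against Parent and 0.999 against NC-1. With 2 libraries a group, the smallest p of an exact permutation test is 0.33, so no sum can pass a threshold of 0.05.

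**Figure D4:**
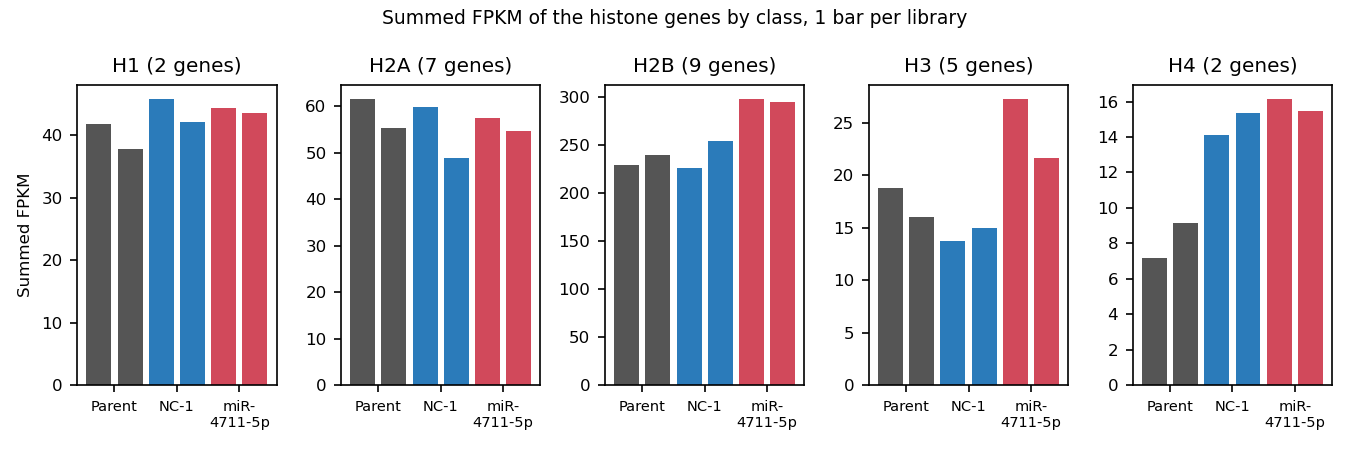
Summed FPKM of the histone genes in each class, 1 bar per library, with an axis from 0 of its own for each class. H2B is at 229 and 240 FPKM in Parent and at 298 and 295 with miR-4711-5p, and H4 is higher in all 4 treated libraries (14.1 to 16.2) than in Parent (7.17 and 9.12).

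Among untailed RNAs of other kinds, RMRP and RPPH1 differed between libraries too. RMRP, the RNA of a mitochondrial RNA processing ribonuclease, had 36.3 and 47.1 FPKM in Parent, 73.1 and 149.7 in NC-1, and 87.6 and 140.3 with miR-4711-5p. It was called higher in both treated groups than in Parent (ratios 2.67 with NC-1 and 2.73 with miR-4711-5p, limma adjusted p = 0.0289 and 0.0143). Both calls were lost without either Parent library or without replicate 2 of the treated group (up to 0.164 and 0.102). RPPH1, the RNA of ribonuclease P, had 28.3 and 49.1, 56.0 and 102, and 52.2 and 76.8 FPKM and was not called. Both were higher in replicate 2 of each group than in replicate 1, by 1.30 to 2.05 times for RMRP and 1.47 to 1.82 times for RPPH1. Of the 6 untailed RNAs over the filter, 1 was called higher against Parent with miR-4711-5p, 0 against NC-1, and 1 in NC-1 against Parent. The shares of all symbols called higher were 18.7%, 18.4% and 12.1%. VTRNA1-1 and RNU11 passed the filter through 1 library each, at 29.7 FPKM in NC-1 replicate 2 and 7.34 in miR-4711-5p replicate 1.

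Among the members, HIST1H1B, HIST1H2AM, HIST1H2BN, HIST2H2BA, HIST2H2BE and HIST4H4 were higher in replicate 2 of every group. The opposite held for HIST1H1C, HIST1H2AC, HIST3H2A, HIST1H3H, HIST2H3D and HIST1H2AG, which were lower in replicate 2 of every group. The share of all symbols with either pattern was not recorded. Members higher in replicate 2 numbered 15 in Parent, 17 in NC-1 and 9 with miR-4711-5p, beside 48.2%, 50.2% and 49.4% of all symbols. The HIST1H1B value, for example, was 2.03 FPKM in NC-1 replicate 2 and 1.09 in replicate 1. The part of untailed RNA carry-over in these differences was not tested.

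The 48 prefixed symbols under 1 FPKM included 19 that were listed at 0 in all 6 libraries. Among them were HIST2H3C and HIST2H3A, which share 75-base windows with HIST2H3D, and HIST2H2AA3, which shares some with HIST2H2AC. Reads from such stretches could have been assigned to another gene, so a listed 0 does not show that a gene was silent. Summed, the 48 gave 10.7 and 12.7 FPKM in Parent, 8.68 and 19.2 in NC-1, and 12.7 and 14.5 with miR-4711-5p, with the extremes in the NC-1 libraries. Just inside the limit lay HIST1H1B, HIST1H2AK and HIST1H2BN, with means of 1.05, 1.38 and 1.495 FPKM. Just outside lay HIST1H2BL, HIST1H2AL and HIST1H2BO, with 0.887, 0.887 and 0.867 FPKM. HIST1H2BO was at 0 in Parent replicate 1 and at 1.04 in replicate 2.

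S-phase genes were mostly lower than in Parent in the treated groups, and the histone members were mixed. Of 22 S-phase genes, 21 were lower and 0 higher for miR-4711-5p against Parent, with a median log2 fold change of -0.38, beside 24.7% of all symbols; with every library scaled to the same sum, 17 were lower. Of the 25 histone members, 0 were lower in that comparison under either scale, whereas NC-1 against Parent had 3 lower (HIST1H2AI, HIST2H3D and HIST3H2A) and miR-4711-5p against NC-1 had HIST1H2AM lower. GINS2, a part of the replicative helicase, had 27.9 and 27.0 FPKM in Parent, 19.8 and 20.7 in NC-1, and 8.28 and 9.01 with miR-4711-5p (ratio 0.315 to Parent, limma adjusted p = 5.15e-06). MCM5, another helicase subunit, had a ratio of 0.611 to Parent. NC-1 also differed from Parent, with 20 of 22 lower and a median of -0.38, beside 15.1% of all symbols. For miR-4711-5p against NC-1, 5 were lower and 2 higher, beside 21.2% and 18.4% of all symbols. UHRF1, for instance, was higher at 1.26, a call lost without miR-4711-5p replicate 1. Its ratios to Parent were 0.831 with miR-4711-5p and 0.661 with NC-1. The difference between the lists was not tested.

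**Figure D5:**
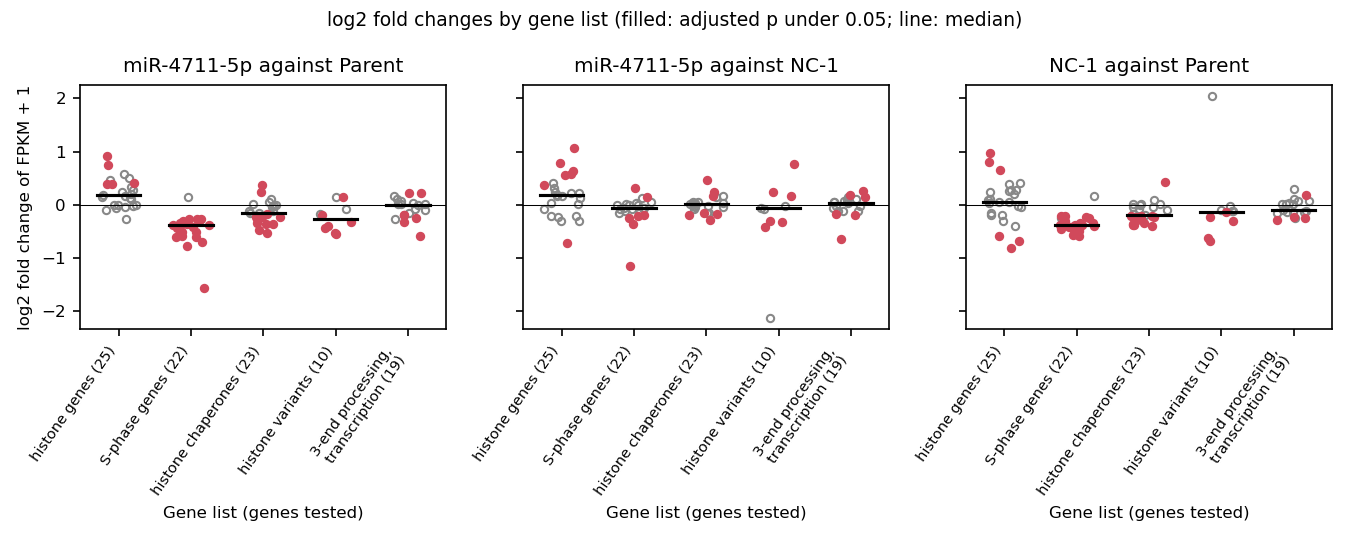
log2 fold change of FPKM + 1 for the histone genes and 4 related lists in 3 comparisons, 1 point per gene; filled points have a limma adjusted p under 0.05 and black lines are medians. The S-phase genes lie at a median of -0.38 in both comparisons with Parent, and the histone genes at 0.19 with miR-4711-5p and 0.06 with NC-1.

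Histone variants, most of which are made from polyadenylated mRNA and not tied to replication, fell more often than they rose against Parent. Of the 10 tested, 6 were lower and 1 higher with miR-4711-5p, beside 24.7% and 18.7% of all symbols. With every library scaled to the same sum, 4 were lower and 2 higher. H2AFZ, the H2A.Z gene, had 395 and 390 FPKM in Parent, 343 and 327 in NC-1, and 266 and 268 with miR-4711-5p (ratio 0.680, limma adjusted p = 6.84e-05). H2AFV and H2AFX, the genes of a second H2A.Z form and of the damage-associated H2A.X, whose mRNA is also made in a stem-loop form, had ratios of 0.689 and 0.734. Against NC-1, 3 variants were lower and 3 higher, beside 21.2% and 18.4% of all symbols. H1FX, a linker histone, was at 1.71. Its ratio of NC-1 to Parent was 0.644 (limma adjusted p = 0.00171). It was not called for miR-4711-5p against Parent (limma adjusted p = 0.128), so NC-1 was the group that lay apart. NC-1 against Parent gave 5 lower and 0 higher, beside 15.1% and 12.1% of all symbols, or 3 and 0 at the same sum. H3F3A, an H3.3 gene, was listed at 0.0257 and 11.0 FPKM in the Parent libraries and at 0.0152 and 9.92 with miR-4711-5p. Its pseudogene H3F3AP4 stood at 329 to 396. Whether reads of the 2 can be told apart was not tested, so no comparison is drawn from H3F3A. It is among the 10 tested, without a call in any comparison.

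The histone chaperones, which carry new histones to DNA, had 11 of 23 lower and 2 higher for miR-4711-5p against Parent. The shares of all symbols were 24.7% and 18.7%. With every library scaled to the same sum, 5 chaperones were lower and 5 higher. CHAF1B, a subunit of chromatin assembly factor 1, had a ratio of 0.671 (limma adjusted p = 0.00128) and ASF1B one of 0.712 (0.00111), while HIRA, which deposits H3.3 outside replication, had 1.31 (0.00247). Against NC-1, 4 were lower and 3 higher, beside 21.2% and 18.4% of all symbols. In NC-1 against Parent 11 were lower and 1 higher, beside 15.1% and 12.1%, or 6 and 1 at the same sum. With an added ratio of 1.5, 0 chaperones were called in any comparison.

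Of the factors that transcribe histone genes and cut their transcripts, 5 of 19 were lower and 2 higher for miR-4711-5p against Parent. The shares of all symbols were 24.7% and 18.7%. With every library scaled to the same sum, 2 factors were lower and 4 higher. SLBP had 36.9 and 39.7 FPKM in Parent, 32.5 and 32.8 in NC-1, and 33.3 and 33.2 with miR-4711-5p, with ratios to Parent of 0.868 for miR-4711-5p and 0.852 for NC-1 (limma adjusted p = 0.0177 and 0.0193). Both calls were lost with every library scaled to the same sum (0.375 and 0.0942) and without Parent replicate 2 or either library of the treated group (up to 0.0885 and 0.0813). NPAT and CASP8AP2, both needed for histone transcription, were not called, at 4.18 to 5.74 FPKM in every library. CSTF2, a cleavage stimulation factor subunit, was lower with miR-4711-5p than in both controls (ratios 0.792 and 0.874), but the call against NC-1 was lost with 5 of the 6 libraries left out in turn (limma adjusted p up to 0.186) and at the same sum (0.0735). NCBP1, a part of the cap-binding complex, was lower than in Parent (0.834), without a call at the same sum (limma adjusted p = 0.103). ZNF473, a zinc finger protein of the U7 complex, was higher than with NC-1 (1.22), a call lost without NC-1 replicate 1 or either miR-4711-5p library (up to 0.103). Against NC-1, 3 were higher and 3 lower, beside 18.4% and 21.2% of all symbols. In NC-1 against Parent 1 was higher and 3 lower, beside 12.1% and 15.1%, or 1 and 1 at the same sum.

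Of 16 general polyadenylation factors, 4 were higher and 1 lower against Parent, beside 18.7% and 24.7% of all symbols. With every library scaled to the same sum, 8 were higher and 0 lower. Against NC-1, 8 were higher and 1 lower, beside 18.4% and 21.2% of all symbols. PAPOLA, the poly(A) polymerase, was the lower one in both (ratios 0.838 and 0.792), the first without a call at the same sum (limma adjusted p = 0.118), and RBBP6 and PCF11, both cleavage factors, were among the higher ones against Parent (1.35 and 1.31). In NC-1 against Parent 0 were higher and 4 lower, beside 12.1% and 15.1% of all symbols, or 1 and 2 at the same sum. Of 10 factors of histone mRNA decay, 2 were higher and 0 lower against Parent, beside the same 18.7% and 24.7%. With every library scaled to the same sum, 5 were higher and 0 lower. XRN1, a 5′ exonuclease, was at 1.38 and ZCCHC11, a uridylating enzyme, at 1.33, a call lost without Parent replicate 2 or either miR-4711-5p library (limma adjusted p up to 0.102). Against NC-1 2 were higher and 1 lower, beside 18.4% and 21.2% of all symbols. The lower one was DCP2, a decapping enzyme, at 0.561. Its ratio to Parent was 1.004 with miR-4711-5p (limma adjusted p = 0.987) and 1.79 with NC-1 (adjusted p = 0.00362), so NC-1 was the group that lay apart. NC-1 against Parent gave 4 higher and 2 lower, beside 12.1% and 15.1% of all symbols, or 4 and 1 at the same sum.

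POU2F1, the Oct-1 factor that binds the octamer ATTTGCAT of H2B promoters, was lower with miR-4711-5p. It had 3.65 and 3.21 FPKM in Parent, 3.86 and 3.42 in NC-1, and 1.99 and 1.93 with miR-4711-5p. The ratio was 0.571 against Parent (log2 fold change -0.58, SE 0.10, limma adjusted p = 0.00274) and 0.538 against NC-1 (-0.65, SE 0.10, adjusted p = 0.00193). The octamer, searched on both strands from 250 bases before to 50 after the RefSeq start (GRCh38.p14), was in the promoters of 9 of 23 members with one (39.1%), against 1.80% of 27305 promoters. It was in 5 of 7 H2B and 4 of 7 H2A promoters and in 0 of those of H1, H3 and H4. Pairs of neighbouring H2A and H2B genes that point away from each other share 1 octamer: HIST1H2BC with HIST1H2AC, HIST1H2BJ with HIST1H2AG, and HIST2H2BE with HIST2H2AC. The stretches are shown on the strand of the H2B gene, or of HIST1H2AM, as found in GRCh37, with the octamer in capitals.
HIST1H2BK (chr6:27114661-27114698, minus strand): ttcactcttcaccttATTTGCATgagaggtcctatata
HIST1H2BC and HIST1H2AC (chr6:26124255-26124292, minus strand): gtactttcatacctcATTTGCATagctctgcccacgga
HIST1H2BJ and HIST1H2AG (chr6:27100599-27100636, minus strand): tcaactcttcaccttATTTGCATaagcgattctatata
HIST2H2BE and HIST2H2AC (chr1:149858256-149858293, minus strand): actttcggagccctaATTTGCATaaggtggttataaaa
HIST2H2BF (chr1:149783952-149783989, minus strand): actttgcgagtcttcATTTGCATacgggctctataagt
HIST1H2AM (chr6:27861039-27861076, minus strand): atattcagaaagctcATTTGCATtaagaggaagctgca

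The members with an octamer did not move as 1 group. Against Parent HIST1H2BK and HIST2H2BE were higher with miR-4711-5p, HIST1H2AM was lower than with NC-1, and the other 6 were not called in any comparison. Within the shared promoters, HIST1H2AC had 37.7 FPKM over 6 libraries and HIST1H2BC 11.6, HIST1H2BJ 9.17 and HIST1H2AG 4.22, and HIST2H2BE 7.07 and HIST2H2AC 1.54. CCAAT was in 91.3% of the members' promoters and 35.7% of all, and TATAAA in 65.2% and 12.0%, again on both strands. A match of letters is a description and not a bound site.

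The transfected microRNA has the mature sequence below (RefSeq), with its seed, bases 2 to 8, in capitals.
hsa-miR-4711-5p: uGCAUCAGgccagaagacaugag
Sites paired with this seed, CTGATGC or TGATGCA, were searched over the full length of the annotated coding transcripts. They were in 1 of the 23 coding members, HIST1H2BJ, in 2 of its 3 annotated coding transcripts. Whether they lie in the 3′ untranslated region was not recorded. HIST1H2BJ had 10.6 and 8.88 FPKM in Parent, 7.46 and 9.30 in NC-1, and 9.21 and 9.64 with miR-4711-5p. The groups overlapped, and the ratio was 0.970 against Parent and 1.12 against NC-1 (limma adjusted p = 0.818 and 0.295).

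The line was checked against its markers. KRT7, KRT8, KRT18 and KRT19, keratins of duct epithelium, were between 890 and 1842 FPKM in every library, and EPCAM, MUC1 and CDH1 were all present. CDH1, KRT19 and MUC1 were the 3 of 7 lower against Parent with miR-4711-5p, and 1 was higher, beside 24.7% and 18.7% of all symbols. Against NC-1, 4 were lower and 3 higher, beside 21.2% and 18.4% of all symbols. NC-1 against Parent gave 3 lower and 0 higher, beside 15.1% and 12.1%. Of 12 markers of leukocytes, fibroblasts, endothelium, acinar and islet cells, 10 had a mean under 1 FPKM, with TYROBP, INS and GCG at 0 in all libraries. COL1A1 reached 2.35 FPKM and PRSS1, a trypsinogen gene, ran from 0.684 to 5.10 FPKM and was called higher in both treated groups than in Parent. Their part in the histone values was not tested. SMAD4, known to be lost from this line, was listed at 0 in every library. Read depth relative to Parent replicate 1, estimated from the steps of the lowest values, was between 0.751 and 1.21.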

How the data were processed

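RNA-seq of 6 BxPC-3 libraries (3 groups of 2) was analysed. The authors prepared poly(A)-selected stranded mRNA libraries, read 75 bases from 1 end, mapped to hg19 and deposited FPKM per symbol, normalized by Cuffnorm for exon length and library size. The submitters' processing notes name TopHat2 2.1.1, Bowtie2 2.3.5.1, SAMtools 1.2 and Cufflinks 2.2.1; the paper names other versions of the first 3. Annotation and strand option are not given in the sources used here. FPKM keeps no read counts, so no count test was run.

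Symbols with a mean of at least 1 FPKM (12040) were tested on log2(FPKM + 1), a scale that understates changes of low genes, with limma 3.58.1 in R 4.3.3 (trend, all 3 groups in 1 fit, 3 residual and 4.15 prior degrees of freedom, two-sided, Benjamini-Hochberg at 0.05 over all symbols). Ratios are of mean FPKM. The fit was tested on simulated data. Members and lists were chosen with earlier results of these data known. Named were members over 10 FPKM, or called with a ratio of at least 1.5, and the 3 largest called changes of each list (1 is not reported here); HIST2H2BE, HIST1H3B and HIST1H2BJ were added after their values were seen. Older symbols were matched through RefSeq to GENCODE v44 on GRCh37. A window counted as shared when its 75 bases occur in a transcript of another gene. Alternatives were another pseudocount (0.1), no filter, rescaling, a replicate block, other fits and each library left out.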

Additional observations from a re-analysis of the deposited data

How the results depend on the processing

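No call reversed its direction under any alternative. Testing every symbol above 0 gave 3 members higher for miR-4711-5p against Parent, 2 higher and 0 lower against NC-1, and 1 higher and 1 lower for NC-1 against Parent. Among all 19158 symbols then tested, 2075 were higher and 2574 lower against Parent, and 1946 and 2246 against NC-1. NC-1 against Parent had 989 higher and 1176 lower. An added ratio of 1.5 left 2 higher against Parent, beside 717 of all 12040 symbols. With only the 2 compared groups in the fit, 1 was higher in NC-1 than in Parent, beside 998 of all 12040 symbols. With every library scaled to the same FPKM sum, 13 members were higher with miR-4711-5p and 5 in NC-1 than in Parent. Among all 12040 symbols, 4010 and 2327 were. Leaving out each library gave 4 to 6 higher and 0 to 1 lower against Parent, 2 to 5 higher and 0 to 1 lower against NC-1, and 1 to 2 higher and 0 to 3 lower for NC-1 against Parent. Where 1 library remained in a group, it was assumed to vary like the others. The summed FPKM without the highest member had ratios of 1.135 and 1.11. Causes of these shifts were not tested.

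No source pairs same-numbered libraries, and not every pair correlated by over 0.1: deviations from group means correlated at 0.06, 0.00 and -0.01 over all symbols, although at 0.45, 0.08 and 0.28 over the 25 members. With a replicate block, 8 members were higher with miR-4711-5p and 6 in NC-1 than in Parent, beside 2121 and 1263 of all 12040 symbols. In 50 fits of single genes the sign differed without a call on either side. With 2 libraries a group, unknown read numbers and low levels, differences in members near 1 FPKM could not be resolved.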
